A study of Danio rerio with 15 samples.

Results

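A set of 49 genes was low in zebrafish venous thrombus tissue at 1 h and 3 h after laser injury and high in uninjured tissue and at 6 h. They were chosen from 13051 genes with an FPKM of at least 1 in at least 3 of 15 libraries, so they are 0.375% of the genes tested. FPKM is a fragment count divided by transcript length and by library size. Each gene's mean of log2(FPKM + 1) at 1 h and at 3 h lay at least 1.5 below the means of the control and of 6 h. The 1 h and 3 h means differed by less than 1.5, and all 6 of these values lay below every control value. The choice therefore used the control, 1 h, 3 h and 6 h values, and the fall and return that define the set are a description with no test. The 12 h libraries entered only through the filter on low values. Of the 49 genes, 47 have a symbol and 46 come from a single gene ID; CTHRC1, golim4a and SOX9 each sum 2 IDs.

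All larvae carried Tg (flk1:eGFP; gata1:dsRed), in which the flk1 promoter marks endothelium green and the gata1 promoter marks erythroid cells red. In the injured groups a laser had damaged the venous endothelium near the anal pore, and thrombus tissue was taken at 1, 3, 6 or 12 h by laser-capture microdissection of frozen sections. The control was venous tissue without injury or thrombosis, and no uninjured tissue matched in time to the injured groups was sampled, so injury cannot be told apart from handling and time of day. Each of the 5 groups had 3 libraries, with 12486844 to 15651535 reads each. Nothing in the labels links a library to an animal, so some libraries may share one, and p-values measure only the spread between these libraries and may be too small. The larvae's age is not given in the sources used here.

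A venous clot forms where injured endothelium exposes the matrix beneath it: thrombocytes, the fish counterpart of platelets, adhere, fibrin is laid down and plasmin later dissolves it. The caudal vein of a larva lies beside muscle, notochord and fin mesenchyme, and tissue cut from around it holds RNA of these cells as well as of vessel and blood. In such bulk tissue, fewer cells of a type and less RNA per cell cannot be told apart. The 49 genes are not a single pathway. They include secreted matrix and growth regulators, vessel and cell surface proteins, RNA processing and chromatin factors, mitochondrial enzymes and proteins of the secretory pathway. These role groups were drawn up after the values were seen, so their counts and medians carry no test.

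Typical levels were far below the control at 1 h and 3 h and closer to it at 6 h and 12 h. The median member was 13.3 FPKM in control tissue, 1.36 at 1 h, 1.09 at 3 h, 8.83 at 6 h and 9.01 at 12 h, each over the members' group means. On the log2(FPKM + 1) scale the median member difference from the control was -2.19 at 1 h, -2.51 at 3 h, -0.19 at 6 h and -0.16 at 12 h. Over all 13051 genes these medians were -0.12, -0.13, -0.02 and 0.32 at the same times. Of the 49, 28 were lower at 3 h than at 1 h, 16 were lower at 1 h than at 3 h, and 5 were listed at 0 in all 6 early libraries and tie. By limma, 2 members were lower at 1 h and 9 at 3 h than in the control at an adjusted p under 0.05, against 0.0996% and 0.552% of all genes. The choice used those contrasts, so nothing is read from these counts.

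**Figure D1:**
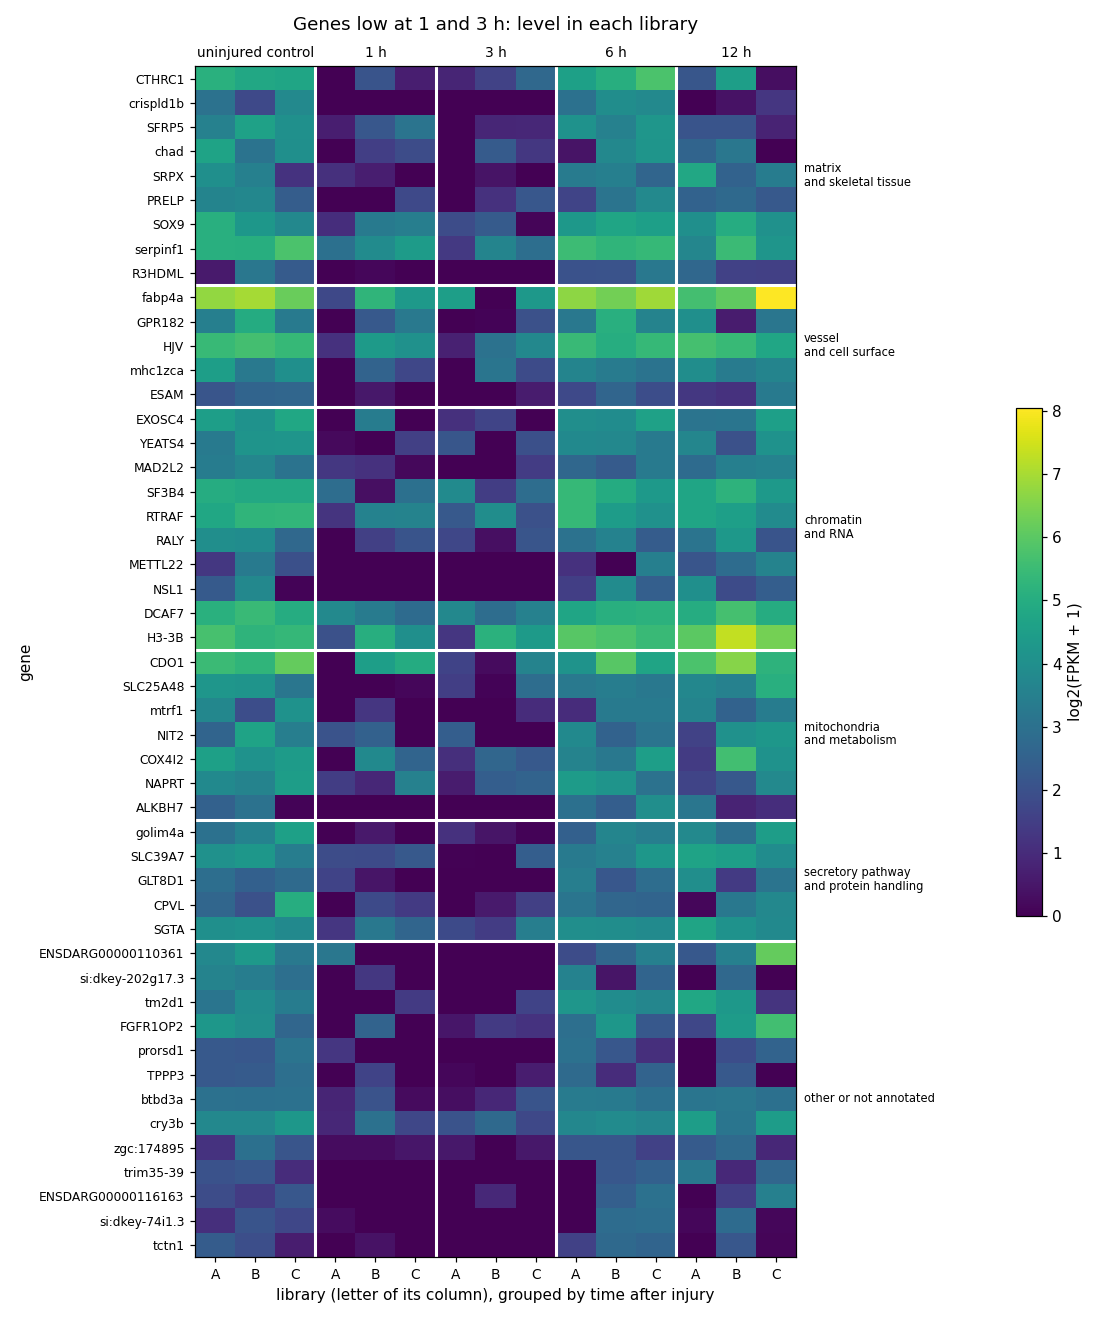
Level of each of the 49 genes, as log2(FPKM + 1), in the 15 libraries, ordered by time from the uninjured control to 12 h and by role group from top to bottom. Each gene's 1 h and 3 h values lie below all its own control values, some only just, and 121 of these 294 early values were listed at 0, against 0 of 147 in the control. CTHRC1, crispld1b and SFRP5, at the top, are below all their control values at 12 h too.

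Many early values were listed at 0. Values at 0 numbered 0 of 147 in the control, 121 of 294 at 1 h and 3 h together, 4 of 147 at 6 h and 9 of 147 at 12 h. Of the members, 6 were at 0 in all 3 libraries at 1 h and 12 in all 3 at 3 h, while 11 stayed above 0 in all 6. A listed 0 does not show that a gene was silent: for a transcript of 2000 bases, 3 reads correspond to 0.0958 to 0.12 FPKM, a limit that covers counting error only. Members had a median of 10 reads in an early library, against 251 in a control library. Their median transcript length was 1671 bases, against 2173 over all kept genes.

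The early libraries also detected fewer genes in general. Gene IDs above 0 numbered 14288, 13988 and 14054 in the control, 11443, 12788 and 11771 at 1 h, and 12857, 13074 and 13282 at 3 h. At 6 h there were 12917, 14012 and 13230, and at 12 h 13737, 17422 and 15184. Zeros among other genes are therefore given beside those of the members. In the 1 h libraries A, B and C, 53.1%, 26.5% and 40.8% of members were at 0, against 10.6%, 6.79% and 7.47% of the 5905 other genes with at least 1 FPKM in every control library. In the 3 h libraries, 49.0%, 44.9% and 32.7% of members were at 0, against 8.54%, 6.05% and 6.52% of those other genes. The members were chosen low at these times, so the gap is part of the choice. Library A was the lowest of its group at both times, with a mean member difference from the control of -2.86 at 1 h and -2.78 at 3 h. The other early libraries lay between -2.61 and -1.96. Library A was also the lowest at 6 h (-0.391) and 12 h (-0.624), while library C was the lowest in the control (-0.119). Library B at 12 h stood apart by its marker genes, with a summed neural level of 861 FPKM (47.5 and 51.5 in the other two), erythroid 125 (1361 and 2743) and neutrophil 2.52 (49.2 and 114). Its part in the 12 h values was not tested, and the 12 h counts are therefore given without it as well, a choice made after seeing the data. Early libraries were uneven too. The neural sum was 289 FPKM in 1 h library B (44.9 and 28.2 in the others) and 109 in 3 h library C (30.9 and 26.9). The epidermis sum was 305 FPKM in 1 h library C (1897 and 3974 in the others). The part of this unevenness in the early values was not tested.

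**Figure D2:**
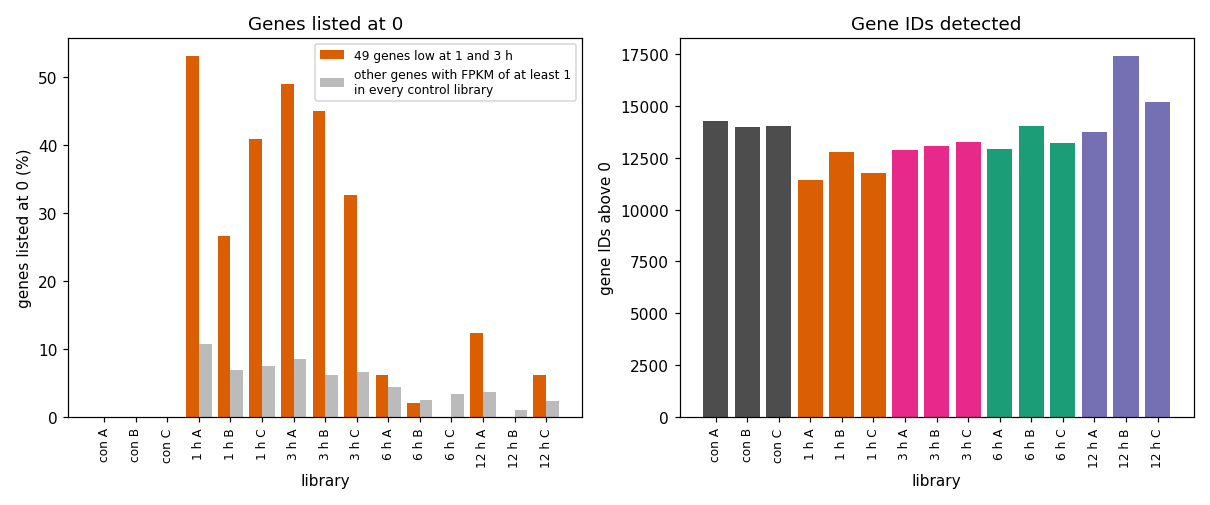
Left, percent of genes listed at 0 in each library, for the 49 genes (orange) and for 5905 other genes with at least 1 FPKM in every control library (grey); right, gene IDs above 0 in each library. Both kinds of gene have more zeros at 1 h and 3 h, with 53.1% of members and 10.6% of other genes in 1 h library A.

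Among genes of matrix and skeletal tissue, 9 in number, CTHRC1, crispld1b, SFRP5 and chad had large early differences. CTHRC1, a secreted collagen-repeat protein made by fibroblasts of wounded arteries in the rat, had 33.8, 27.7 and 25.7 FPKM in control tissue, 0, 3.27 and 0.611 at 1 h, and 0.797, 2.02 and 5.61 at 3 h. It had 22.8, 32.0 and 53.4 FPKM at 6 h and 3.45, 21.9 and 0.239 at 12 h. Its 6 h libraries overlapped the control, while every 12 h library lay below every control library, with library B close to the control and C near 0. crispld1b, which encodes a secreted cysteine-rich protein, was at 7.20, 2.45 and 13.0 FPKM in the control and listed at 0 in all 6 libraries of 1 h and 3 h. It had 7.04, 14.5 and 13.0 FPKM at 6 h, and was at 0, 0.319 and 1.41 FPKM at 12 h. At 12 h its library A was at 0 like the early libraries, B and C were above them, and all 3 lay below every control and 6 h library.

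SFRP5, a secreted antagonist of Wnt ligands, had 10.7, 23.2 and 15.6 FPKM in control tissue, 0.606, 3.60 and 7.53 at 1 h, 0, 0.807 and 0.869 at 3 h, 16.4, 10.6 and 17.6 at 6 h, and 3.31, 3.30 and 0.726 at 12 h. Its 12 h values fell within the range of its 1 h values and below all control and 6 h values. chad, the cartilage matrix protein chondroadherin, had 24.8, 7.40 and 15.2 FPKM in control tissue, 0, 1.83 and 2.70 at 1 h, 0, 4.02 and 1.49 at 3 h, 0.339, 12.6 and 17.6 at 6 h, and 5.09, 8.11 and 0 at 12 h. Library A at 6 h was as low as the early ones, and the 12 h values overlapped both the control and the early times. SOX9, the transcription factor that drives cartilage formation, had 32.9, 18.4 and 12.6 FPKM in control tissue, 1.05, 8.67 and 9.80 at 1 h, 2.66, 3.94 and 0.0873 at 3 h, 18.6, 25.5 and 22.5 at 6 h, and 15.3, 30.5 and 15.8 at 12 h. Its 12 h libraries overlapped the control and lay above every early library.

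The remaining matrix genes were PRELP, a leucine-rich proteoglycan of connective tissue, serpinf1, a secreted serpin known to restrain vessel growth in mammals, SRPX, a sushi-repeat protein, and R3HDML. Their early differences from the control ran from -2.76 to -1.53 on the log2(FPKM + 1) scale. SRPX rested on a thin margin: its highest early library had 1.15 FPKM, against 15.0, 10.5 and 1.246 FPKM in the control libraries. serpinf1 was among the 3 genes nearest to the limit of the rule, at 1.53; the other two were ENSDARG00000116163 at 1.51 and tctn1, of the ciliary transition zone, at 1.52. Just outside it lay nupr1a at 1.497, golim4b at 1.49 and PHLDA1 at 1.49.

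**Figure D3:**
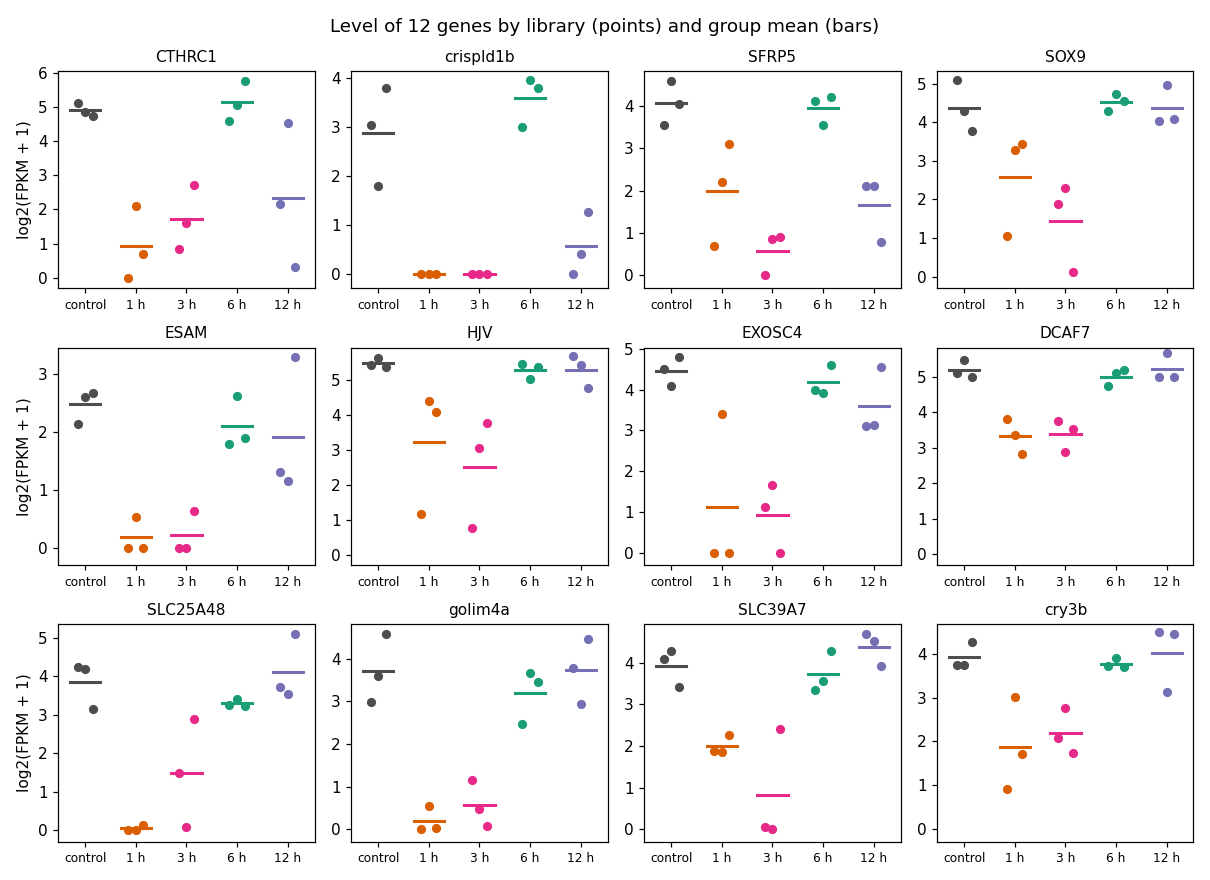
Level of 12 of the genes, as log2(FPKM + 1), in each library (points) with the group mean (bars), from the uninjured control to 12 h. SFRP5 and crispld1b had 12 h values below all their control values, while SOX9, DCAF7, SLC25A48 and golim4a had 12 h values that overlapped the control and lay above all early values.

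The vessel and cell surface group held 5 genes. fabp4a, a fatty acid binding protein found in capillary endothelium and fat cells of mammals, had 108, 124 and 73.6 FPKM in control tissue, 2.37, 37.7 and 19.7 at 1 h, 21.7, 0 and 18.5 at 3 h, 103, 80.2 and 120.4 at 6 h, and 49.4, 66.9 and 265 at 12 h. It was among the most abundant of the 49, and its 12 h libraries straddled the control. ESAM, an adhesion molecule of endothelial junctions, was at 3.38, 5.08 and 5.37 FPKM in control tissue, listed at 0 in 4 of the 6 early libraries and at 0.438 and 0.543 in the other two, at 2.47, 5.16 and 2.73 at 6 h, and at 1.48, 1.22 and 8.75 at 12 h. GPR182, an endothelial receptor that binds chemokines, had 15.0, 0.528 and 7.97 FPKM by 12 h, against 10.2, 30.0 and 8.87 in the control. It had 0, 3.75 and 8.50 FPKM at 1 h and 0, 0.0547 and 3.02 at 3 h, so 1 h library C lay just under the lowest control. At 12 h, libraries B and C of GPR182 lay within this early range, and library A lay within the control range. HJV, the BMP co-receptor hemojuvelin, had 50.4, 41.8 and 26.4 FPKM by 12 h, against 42.3, 49.0 and 40.9 in the control, and these overlapped. mhc1zca, a gene of the MHC class I family whose copies may share reads, had 14.4, 9.26 and 11.3 FPKM by 12 h, against 22.1, 8.59 and 15.1 in the control.

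Levels of endothelial marker genes are given beside this group. The list of endothelial markers, which holds none of the 49, had 9 members above the filter. Of these, 8 were lower at 1 h than in the control and 8 lower at 3 h, and limma called none. Over all 13051 genes, 7295 were lower at 1 h and 7270 at 3 h, and limma called 0.0996% and 0.552% lower. Its summed level was 30.3 to 32.5 FPKM in control tissue, 5.17 to 31.5 at 1 h, 9.11 to 23.2 at 3 h, 28.0 to 32.0 at 6 h and 8.95 to 37.7 at 12 h. The defining genes kdrl and cdh5 were above 0 in all 15 libraries. kdrl was at 1.30 to 7.20 FPKM in the control, 0.0276 to 3.13 at 1 h and 1.30 to 2.87 at 3 h, and cdh5 at 0.764 to 2.35 in the control, 0.189 to 5.14 at 1 h and 0.212 to 4.20 at 3 h. Early libraries of both genes thus overlapped the control, and some of cdh5 lay above it. Other markers differed. FLI1 was at 6.49 to 9.23 FPKM in the control, 0.0269 to 12.0 at 1 h and 0.937 to 6.06 at 3 h. TIE1 was at 0.521 to 1.89 FPKM in the control, 0 to 1.47 at 1 h and 0 to 0.0507 at 3 h. Every 3 h library of FLI1, TIE1 and stab1 lay below every control library. The share of all genes that do so was not computed, so nothing is read from this. EGFL7, stab2 and pecam1a overlapped the control at both early times. The part of endothelial content in the values of the vessel and cell surface group was not tested.

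Cartilage and notochord markers are given beside the matrix genes. Their summed level, which includes SOX9, was 76.9 to 113.6 FPKM in control tissue, 45.1 to 65.8 at 1 h, 41.4 to 53.0 at 3 h, 93.3 to 123 at 6 h and 77.5 to 112 at 12 h, so that by this sum the early libraries lay below all the others. Over the 5 genes of the list above the filter, the median difference from the control was -0.70 at 3 h and -0.02 at 12 h. The 12 h median is the value of SOX9 itself. SOX9 is also 1 of the matrix genes, whose 12 h median was -0.84, so these medians share a gene. Of the 5, 4 were below the control mean at 12 h. COL2A1 made up most of the sum, while col8a1a was at 0 in all 15 libraries and MATN1 in 14. SOX9 was chosen for its early values. Of the other 4 genes above the filter, COL2A1 among them, limma called none against the control at 1 h or 3 h. It called 0.0996% and 0.552% of all genes lower at these times. Fin fold markers ran the other way at the early times, with summed levels of 9.63 to 95.4 FPKM in control tissue, 105 to 545 at 1 h, 132 to 468 at 3 h, 5.75 to 41.6 at 6 h and 273 to 1091 at 12 h. Muscle marker sums were 156282 to 202269 FPKM in control tissue, 90694 to 146746 at 1 h, 99516 to 155869 at 3 h, 157029 to 190883 at 6 h and 97430 to 169614 at 12 h. All 10 muscle markers above the filter were below the control mean at 12 h, where 4119 of all 13051 genes were. Their median was -0.57, and limma called none. What part these tissues have in the values of the 49 genes was not tested.

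The RNA processing and chromatin group held 10 genes, some of them with other roles, as named below. EXOSC4, a subunit of the RNA exosome that degrades RNA, had 21.7, 16.1 and 26.6 FPKM in control tissue, 0, 9.55 and 0 at 1 h, 1.19, 2.14 and 0 at 3 h, 14.8, 14.2 and 23.3 at 6 h, and 7.57, 7.79 and 22.3 at 12 h. A single early library, 1 h B, stood above the other five, and 12 h overlapped the control. YEATS4, a reader of acylated histones, had 8.87, 17.0 and 17.2 FPKM in control tissue, 0.150, 0 and 1.88 at 1 h, 3.41, 0 and 2.94 at 3 h, 13.1, 12.5 and 9.01 at 6 h, and 12.1, 3.02 and 16.3 at 12 h. MAD2L2, a subunit of the translesion polymerase zeta, had 9.42, 11.8 and 7.36 FPKM in control tissue, 1.45, 1.23 and 0.127 at 1 h, 0, 0 and 1.72 at 3 h, 5.48, 3.92 and 8.84 at 6 h, and 6.03, 10.1 and 11.0 at 12 h. Both genes had 12 h libraries that overlapped the control; for MAD2L2 all 3 lay above every early library, and for YEATS4 library B did not.

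DCAF7, a scaffold protein that binds DYRK kinases, averaged 35.7 ± 6.69 FPKM in control tissue, 9.42 ± 3.49 at 1 h, 9.77 ± 3.13 at 3 h, 31.2 ± 4.91 at 6 h and 37.3 ± 11.0 at 12 h (SD, n = 3 each), and none of its values was at 0. SF3B4, a subunit of the splicing factor SF3b, averaged 29.0 ± 1.67 FPKM in control tissue, 4.50 ± 3.68 at 1 h, 7.23 ± 5.92 at 3 h, 30.1 ± 10.6 at 6 h and 26.9 ± 8.22 at 12 h (SD, n = 3 each). In both genes the early libraries lay below all later ones. METTL22, a methyltransferase, and NSL1, a subunit of the kinetochore complex MIS12, were at 0 in all 6 early libraries. NSL1 had a control library with a single read, so its place in the set rests on that read. H3-3B, the replication-independent histone H3.3, had 64.9, 157 and 82.3 FPKM by 12 h, against 51.3, 36.4 and 40.2 in the control. It is the only one of the 49 with every 12 h library above every control library, which 12.2% of all genes show. Without 12 h library B, GLT8D1, cry3b and trim35-39 joined it, where 22.5% of all genes do. Near-identical copies of the H3.3 gene may share its reads. RTRAF, an RNA-binding factor, had 25.7, 22.3 and 13.7 FPKM by 12 h, against 26.9, 37.3 and 38.5 in the control, and RALY, an RNA-binding protein of the hnRNP family, overlapped its control at 12 h.

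Mitochondrial and metabolic genes numbered 7. SLC25A48, a mitochondrial carrier that takes up choline in mammals, had 18.0, 17.2 and 7.91 FPKM in control tissue, 0, 0 and 0.0994 at 1 h, 1.80, 0.0514 and 6.35 at 3 h, 8.47, 9.59 and 8.44 at 6 h, and 12.2, 10.7 and 33.1 at 12 h. It was almost undetected at 1 h, scattered widely at 3 h, and overlapped the control at 12 h. CDO1, the cysteine dioxygenase that opens cysteine breakdown, had 44.4, 38.0 and 69.5 FPKM in control tissue, 0, 22.0 and 30.3 at 1 h, 2.08, 0.189 and 11.3 at 3 h, 16.5, 61.4 and 24.9 at 6 h, and 53.4, 96.4 and 36.4 at 12 h. Only library A was near 0 at 1 h, and the 6 h libraries overlapped both the early ones and the control. mtrf1, a mitochondrial translation release factor, had 12.1, 2.71 and 16.1 FPKM in control tissue, 0, 1.41 and 0 at 1 h, 0, 0 and 1.05 at 3 h, 1.02, 8.75 and 9.05 at 6 h, and 11.5, 4.75 and 9.49 at 12 h. All 12 h libraries of CDO1 and mtrf1 stood above their early libraries, while 6 h library A did not in either gene, nor library C in CDO1.

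The families of these genes are given beside them. Over all genes, limma called 0.0996% lower than the control at 1 h and 0.552% at 3 h, so no calls in lists of this size say little. Of 38 mitochondrial carriers of the SLC25 family above the filter, SLC25A48 was chosen for its early values, and limma called none of the others against the control at 1 h or 3 h. The family's median difference from the control was -0.15 at 1 h and -0.10 at 3 h on the log2(FPKM + 1) scale, beside -0.12 and -0.13 over all genes. Of 76 genes of mitochondrial translation, including mtrf1, limma called none against the control at 1 h or 3 h. Their medians were -0.23 and -0.58, with 50 and 65 of the 76 below 0, beside 7295 and 7270 of all 13051 genes. ALKBH7, a mitochondrial AlkB-family protein, was at 0 in all 6 early libraries and had a single read in a control library. COX4I2, a cytochrome c oxidase subunit isoform that hypoxia induces in mammals, NIT2, an omega-amidase, and NAPRT, which makes NAD from nicotinic acid, had early differences of -2.78 to -2.00.

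The secretory group held 5 genes. golim4a, a membrane protein of the Golgi, had 6.96, 11.0 and 23.0 FPKM in control tissue, 0, 0.450 and 0.0203 at 1 h, 1.22, 0.378 and 0.0590 at 3 h, 4.51, 11.7 and 9.95 at 6 h, and 12.8, 6.69 and 21.3 at 12 h. Every 6 h and 12 h library lay above every early library, and the 12 h libraries overlapped the control. golim4b, its paralog, missed the rule by a small margin, with 5.33, 3.80 and 2.39 FPKM in control tissue, 0, 0 and 0.124 at 1 h, 0, 0.641 and 0.0600 at 3 h, 1.90, 3.13 and 2.24 at 6 h, and 0.375, 5.21 and 0.0607 at 12 h. golim4a was chosen for its early values. Of the other genes among 50 of Golgi and endoplasmic reticulum trafficking above the filter, limma called none against the control at either early time. It called 0.0996% of all genes lower at 1 h and 0.552% at 3 h, so no calls among so few genes say little. SLC39A7, a transporter that releases zinc from the endoplasmic reticulum, had 15.9, 18.3 and 9.60 FPKM in control tissue, 2.66, 2.62 and 3.81 at 1 h, 0.0390, 0 and 4.33 at 3 h, 9.08, 10.7 and 18.4 at 6 h, and 24.7, 22.1 and 14.1 at 12 h. It reached its lowest values at 3 h, in libraries A and B, and its 12 h libraries overlapped the control. GLT8D1, a glycosyltransferase, SGTA, a co-chaperone of membrane proteins, and CPVL, a carboxypeptidase, complete the group.

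The other 13 genes had no shared role or no annotation. ENSDARG00000110361 had 12.5, 18.9 and 8.51 FPKM in control tissue, 8.10, 0 and 0 at 1 h, 0 in all 3 libraries at 3 h, 2.64, 5.34 and 10.4 at 6 h, and 3.67, 10.5 and 70.4 at 12 h. Library C gave its high value at 12 h, and 1 h library A lay just under the lowest control. tm2d1, a membrane protein, had 7.75, 14.0 and 9.43 FPKM in control tissue, 0, 0 and 1.57 at 1 h, 0, 0 and 2.10 at 3 h, 17.8, 14.0 and 12.0 at 6 h, and 26.8, 18.7 and 1.32 at 12 h. Its 12 h library C remained as low as the early ones, whereas A and B exceeded every control. si:dkey-202g17.3 had 11.3, 9.75 and 6.68 FPKM in control tissue, 0, 1.48 and 0 at 1 h, 0 in all 3 libraries at 3 h, 10.9, 0.365 and 5.08 at 6 h, and 0, 5.58 and 0 at 12 h. It was at 0 in a majority of the early libraries and in 2 of 3 at 12 h. btbd3a, a BTB-domain protein, had 7.76, 8.17 and 6.80 FPKM by 12 h, against 7.05, 6.92 and 6.95 in the control, a return within a narrow spread. The rest were FGFR1OP2, prorsd1, TPPP3, which binds tubulin, zgc:174895, trim35-39, si:dkey-74i1.3, tctn1 and ENSDARG00000116163, with early differences from the control of -2.78 to -1.52 on the log2(FPKM + 1) scale.

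cry3b, a cryptochrome, had 12.5, 12.5 and 18.2 FPKM in control tissue, 0.877, 7.09 and 2.25 at 1 h, 3.20, 5.79 and 2.33 at 3 h, 12.3, 13.9 and 12.0 at 6 h, and 21.5, 7.76 and 21.0 at 12 h. Its 12 h library B lay just above the highest early library, and A and C lay above every control. Among 26 clock genes above the filter, BHLHE40, a repressor of clock genes, was higher at 1 h and at 3 h than in the control (limma, log2 differences 5.22 ± 0.63 and 4.59 ± 0.63 SE, adjusted p = 0.00146 and 0.00118). PER3 was higher and nr1d4b lower at 3 h, with log2 differences of 2.503 ± 0.54 and -2.70 ± 0.56 (SE; limma adjusted p = 0.0280 and 0.0225). The clock list thus had members on both sides, with medians of 0.66 at 1 h and 1.04 at 3 h. The design has no uninjured tissue matched for time of day.

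The 12 h libraries, which the choice used only in the filter, show how far the set returned. No member differed from the control at 12 h by limma at an adjusted p under 0.05. Neither did any of the 13051 genes (0%). At an unadjusted p under 0.05 there were 5 members and 992 genes. limma's voom on recovered reads called 0 members, beside 8 of all genes. Without 12 h library B, 0 members and 0 genes were called. The smallest adjusted p among members was 0.319, for crispld1b (limma). A p that misses the threshold does not show that levels were equal. The control was chosen high, which favours a negative difference at 12 h. Within the set, 16 members were above the control mean and 33 below, where 8884 of all 13051 genes were above and 4119 below. With median ratio scaling, which moves the median of all genes by -0.23 at 12 h, 6 members were above. With 12 h library B left out, 19 members were above.

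Matrix and skeletal genes had the lowest median of the role groups at 12 h. In that group 8 of 9 were below the control, where 4119 of all 13051 genes were. The group's median was -0.84 on the log2(FPKM + 1) scale. CTHRC1 differed by -2.58 ± 0.85, SFRP5 by -2.40 ± 0.65, crispld1b by -2.32 ± 0.61 and chad by -2.00 ± 1.01 (12 h minus control, SE from limma). SRPX was the exception, at 0.69 ± 0.75. Without 12 h library B, 7 of the 9 were below the control, the group median was -1.35 and CTHRC1 differed by -3.67. The medians of the other groups were -0.29 for vessel and cell surface genes and -0.12 for the RNA and chromatin group. They were -0.19 for mitochondrial and metabolic genes, 0.09 for secretory genes and -0.09 for the rest. Without library B these 5 medians, in the same order, were -0.17, -0.18, -0.15, 0.38 and -0.47. Every 12 h library lay below every control library for 5 members, CTHRC1, crispld1b, SFRP5, si:dkey-202g17.3 and RTRAF; 2.61% of all genes show this. CTHRC1, crispld1b and SFRP5 also lay below every 6 h library, as did 3.37% of all genes. Without library B, 12 members lay below every control library and 8 below every 6 h library, beside 6.11% and 6.62% of all genes. Between 12 h and 6 h, limma called 0 members, against 0.0996% of all genes, and 4 members had an unadjusted p under 0.05.

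**Figure D4:**
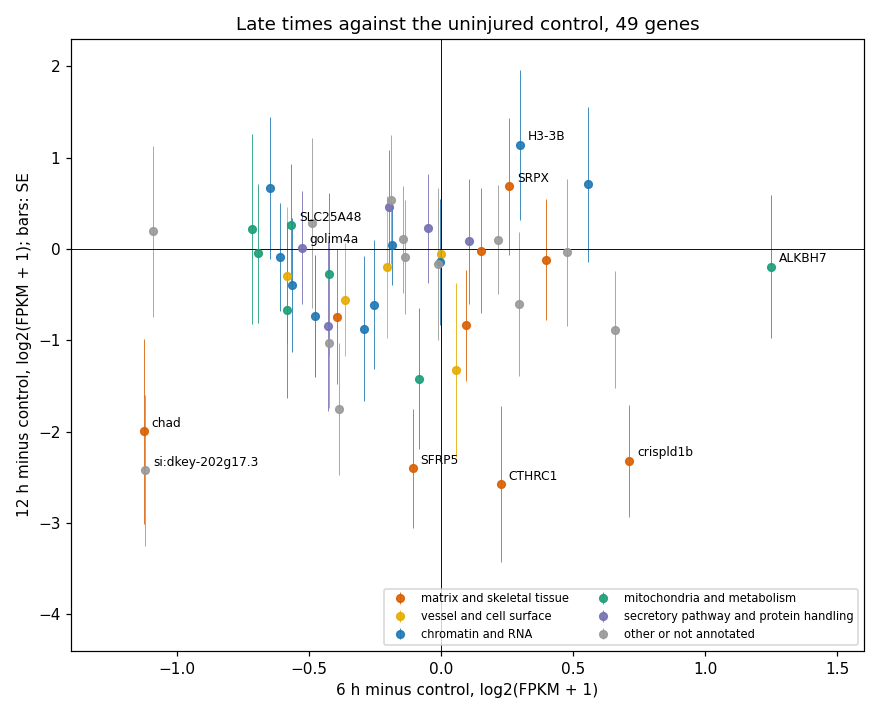
Difference from the control at 6 h (horizontal) and at 12 h (vertical) for the 49 genes, on the log2(FPKM + 1) scale, coloured by role group, with limma's SE of the 12 h difference as bars. CTHRC1, SFRP5, crispld1b and chad, all of the matrix group, lie between -2.58 and -2.00 at 12 h, and H3-3B lies highest at 1.14.

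At 6 h no member had all its libraries on one side of the control libraries, while 6.32% of all genes had every 6 h library above and 6.56% every one below. The rule used both groups as its high side. It kept the 6 h mean at least 1.5 above the early means, which limits how far 6 h could fall below the control. The absence of members below the control at 6 h was thus in part set by the choice. The rule set no limit on how far 6 h could rise above it. limma called 0 of the 49 between 6 h and control, where 0% of all genes were called. At an unadjusted p under 0.05 there were 0 members and 721 genes. voom on recovered reads called 0 members, beside 1 of all genes.

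Against 3 h, 10 members were higher at 12 h (limma adjusted p under 0.05), where 1.85% of all genes were higher. The 3 h values were chosen low, so this count describes the return and is no independent evidence of it. SLC39A7 had the smallest adjusted p, with a difference of 3.55 ± 0.62 (SE; limma adjusted p = 0.00746). The next were golim4a at 3.17 ± 0.62, MAD2L2 at 2.80 ± 0.59, SRPX at 3.44 ± 0.75, DCAF7 at 1.84 ± 0.43 and SOX9 at 2.93 ± 0.69. ENSDARG00000110361, GLT8D1, SLC25A48 and CDO1 made up the 10, with differences of 2.64 to 4.04. These 10 come from every role group except that of vessel and cell surface genes. The count was 10 beside 355 over all genes in either direction, of which 241 were higher. The all-gene counts that follow are also for either direction. Without 3 h library A it was 2 beside 126, without 12 h library C 2 beside 161 and without 12 h B 4 beside 210. It was 5 beside 271 without 3 h B, 5 beside 141 without 12 h A, and 0 beside 36 with only the 3 h and 12 h groups. Calls over all genes thus fell in each of these settings. The 4 without 12 h library B were golim4a, SLC39A7, SRPX and GLT8D1.

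Against 1 h, SLC25A48 and golim4a were higher at 12 h, by 4.07 ± 0.67 and 3.55 ± 0.62 (SE; limma adjusted p = 0.0105 and 0.0154), where 0.483% of all genes were higher. The 1 h values were chosen low as well. Neither call held when only the 1 h and 12 h groups were fitted (limma adjusted p = 0.262 for SLC25A48 and 0.284 for golim4a) or with the replicate block (0.0527 and 0.0595). Without 12 h library C neither held (0.0527 and 0.0693), and without 12 h library A SLC25A48 did (0.0314) and golim4a did not (0.0593). Without 12 h library B both held. Calls of members did not always move with those of all genes, which were 2 and 83 here. Counts over all genes are for either direction, and 63 of the 83 were higher. Without 1 h library B 4 members and 86 genes were called, and with no filter 3 members and 43 genes. voom on recovered reads, chosen after seeing the data, called 6 members and 238 genes. Under voom the SLC25A48 call held and that of golim4a did not (limma's voom, adjusted p = 0.00565 and 0.0740). SFRP5 was the only member whose mean at 12 h was below that at 1 h, at -0.33 ± 0.65 (SE). In all, 25 members had every 12 h library above every 1 h and 3 h library, where 6.5% of all genes did, and 32 had every 6 h library above them, where 3.4% did; the choice used these early values and, for the second count, the 6 h values too. Without 12 h library B the first count was 27, where 12.9% of all genes did so.

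The genes also differed in how closely they followed the mean of the set. Pearson correlations of single members with this mean profile ran from 0.63 for chad to 0.92 for MAD2L2 over the 15 libraries, which share depth and captured tissue. The rule used the control, 1 h, 3 h and 6 h levels, and each member is part of the mean. High correlations were thus built in by the choice and are no evidence of shared control. Among genes outside the set, PSMD3 and PSMB7, which encode subunits of the proteasome, were among the 5 with profiles most like it, at Pearson's r of 0.93 and 0.91 over 15 libraries; ppdpfa and nupr1a had 0.92 and lemd1 had 0.90. PSMD3 had 51.6, 44.5 and 53.7 FPKM in control tissue, 16.4, 31.1 and 25.6 at 1 h, 20.3, 20.6 and 22.5 at 3 h, 32.2, 54.3 and 62.1 at 6 h, and 35.2, 37.2 and 43.9 at 12 h. Its early libraries lay below all others, but by less than the rule asks. Of the members, 42 were found in RefSeq's gene table, on 22 chromosomes, and 0 pairs of these lay within 5 protein-coding genes of each other. No such count was made for other sets of genes, so nothing particular to the members is read from it.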

How the data were processed

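Per the labels' protocols and the submitters' processing notes, reads from a HiSeq 4000 were aligned with HISAT to GRCz11 (Ensembl release 106), and the authors made FPKM with StringTie and edgeR; no source used here gives versions. Deposited FPKM covered 32520 gene IDs; 3 columns for 5 h match no sample and were not used. One 1 h column, lettered B, matches no 1 h title and was assigned to the group only. FPKM were summed over IDs sharing a symbol, giving 28103 genes, and 13051 were kept. All 20690 IDs above 0 in at least 2 libraries gave whole reads (tolerance 0.001). All 15 libraries entered a single limma fit (version 3.58.1, R 4.3.3) of log2(FPKM + 1) with two-sided tests (trend, Benjamini-Hochberg over all kept genes, threshold 0.05) for the time comparisons reported; this scale understates the change of low genes. The fit was tested on simulated data with normal noise, unlike these values with their many zeros. Between 12 h and 3 h it recovered 35 of 100 genes changed by 2 on the log2 scale and 82 of 100 changed by 4, with 4 false calls. The changed genes were all well covered, averaging 100 reads or more. Control means were under 100 reads for 8 members, and the median member value in an early library was 10 reads. These recovery rates therefore need not hold for members with few reads. Values in every library are given for the 15 members with the largest early drop and for members of fixed lists. They are also given for SLC39A7 and ESAM, which meet neither condition. Other members were named by role after their values were seen. The members and lists were chosen with earlier results of these data known. Of 3 symbols left out beforehand, 1 met the rule and is not reported here. Alternatives were no filter, a pseudocount of 0.1, median ratio scaling, only the 2 groups compared, a replicate block, 1 value per gene ID, other gaps, leaving out each library and, chosen after seeing the data, voom.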

Additional observations from a re-analysis of the deposited data

How the results depend on the processing

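The number of genes that meet the rule was 49. It was 115 with a pseudocount of 0.1 (37 shared) and 27 with the gap widened by 0.25. Leaving out each library used by the rule gave 44 to 81 (81 without control B, 75 without 1 h B). The 44 without 1 h library A shared only 31 with the 49, so membership depends on single libraries more than its size shows. Between 12 h and 3 h, 10 members were called, beside 355 of all genes. Counts over all genes here are for either direction. No filter gave 5 beside 230, median ratio scaling 5 beside 266, and only the 2 groups compared 0 beside 36. Leaving out each library gave 2 to 15 beside 126 to 439. Between 12 h and 1 h, 2 were called, beside 83 of all genes. Only the 2 groups compared gave 0 beside 3, the replicate block 0 beside 22, and voom on recovered reads 6 beside 238. Leaving out each library gave 1 to 4 beside 27 to 109. Between 12 h and 6 h, leaving out each library gave 0 to 1, the 1 without control C, beside 24 of all genes there. For 12 h and 6 h against the control the count was 0 under every alternative run. Over all genes it was 0 to 8 at 12 h and 0 to 1 at 6 h. The causes were not tested; with only 2 groups the fit has fewer samples. Same-letter libraries had correlations of -0.155 to 0.134 and other pairs of -0.163 to 0.204, after removing group means. With 3 libraries per group, these correlations cannot decide whether the letters mark pairs. The block gave 11 calls between 12 h and 3 h, beside 324 of all genes, and 0 between 12 h and 1 h, beside 22. Of 210 recomputed 12 h minus 3 h differences of called members, 128 kept their call, 82 lost it and 0 changed sign. SLC39A7 kept its call in 20 of 21 alternatives (adjusted p 0.00105 to 0.112), and CDO1 and SLC25A48 in 5 of 21.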
